A study of Mus musculus with 12 samples.

Results

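The clustered protocadherins are a family of cadherin-like cell surface proteins encoded by 3 neighbouring gene arrays, alpha, beta and gamma, on mouse chromosome 18. Members were chosen by symbol (Pcdha, Pcdhb, Pcdhga, Pcdhgb or Pcdhgc followed by a digit) and by level, as genes with 10 or more counts in 2 or more libraries. Of 55 such genes among the 17090 genes of the count table, 39 met the level: 17 of 21 beta genes, 22 of 22 gamma genes and 0 of 12 alpha genes. The RefSeq annotation lists 56 such symbols, and Pcdhb1 was not analysed here. Because the counts themselves chose the members, their being above 10 counts is a description and not a result.

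Neurons choose a small, varied set of these genes in each cell, and the proteins bind their own kind on neighbouring membranes, which lets a neuron tell its own branches from those of others. Each alpha and gamma transcript joins 1 variable exon, which codes for the whole outer part of the protein, to constant exons that every gene of the array shares, whereas each beta gene is a single exon with its own promoter. CTCF and cohesin loop distant enhancers to the chosen promoter, DNA methylation keeps unchosen promoters silent, and the C-type genes such as Pcdhgc3 are expressed more broadly, outside the nervous system too.

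RNA was sequenced from MTΔECad cells, a mouse mesenchymal breast cancer cell line, while an adipocyte protocol ran. By its name the line lacks E-cadherin, the product of Cdh1, and all 12 libraries share this. The 12 libraries cover 6 time points, each sampled in 2 independent experiments according to the labels: 0 h and 6 h, then days 3, 5, 7 and 10. Cells were seeded at 20000 per cm2 and received 200 ng/ml BMP2 for 3 days, BMP2 with 2 µM rosiglitazone, an agonist of the adipocyte regulator PPARγ, for 4 days, and then rosiglitazone alone for 3 days. The 0 h libraries are cells of the same line before the protocol, 6 h and day 3 carry BMP2 alone, day 5 and day 7 both agents, and day 10 has ended on rosiglitazone alone. All libraries come from 1 line, and no time-matched untreated library was analysed here, so treatment, agent and time in culture cannot be told apart.

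Library totals ran from 12820802 to 17570366 counts. Levels are given as counts per 1000000 library counts (CPM) with TMM scaling factors, and differences as log2 fold changes from edgeR's quasi-likelihood test over 12740 genes, called at a Benjamini-Hochberg adjusted p below 0.05. The course itself was broad: 82.7% of all genes tested were called at day 10 against 0 h. At 0 h, 10 mesenchymal markers summed to between 9250 and 9632 CPM and 8 epithelial markers to between 842 and 853 CPM. Among them Vim stood at 7172 CPM and the epithelial cadherin Cdh1 at 6 and 11 counts, so Cdh1 does not stand for the epithelial set. In a line named for the loss of E-cadherin, the low Cdh1 counts are not read as a sign of cell state. The summed level of 10 adipocyte markers went from between 66.8 and 73.6 CPM at 0 h to between 36454 and 38126 CPM at day 10. The 6 proliferation markers went from between 3464 and 3507 CPM at 0 h to between 65.6 and 90.2 CPM by day 3. In bulk RNA, a change in the number of cells that express a gene and a change in RNA per cell cannot be told apart.

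The 3 arrays lie head to tail on the plus strand of chromosome 18 (GRCm38, mm10). The alpha array spans 36930285 to 37188897, the beta array 37294840 to 37521419, and the gamma array 37661775 to 37841873. The gamma genes share 3 constant exons of 59, 89 and 1971 bases (37825021 to 37841873), 2119 exonic bases in all, and the alpha genes share 3 of 59, 89 and 2712 bases. Each gamma gene has between 2361 and 2960 exonic bases outside the constant exons.

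The way shared exons were counted decides what each gamma and alpha value means. Of the 22 gamma rows, 17 held nearly the same count in any one library: at 0 h they ran from 1100 to 1111 in replicate 1 and from 1318 to 1332 in replicate 2. Over the 12 libraries the highest of these 17 rows exceeded the lowest by 0.762% to 2.43%. The deposited count of a gamma gene is therefore mostly a level common to the whole array, on top of which 5 genes stood out: Pcdhgc3, Pcdhgb4, Pcdhgb6, Pcdhga1 and Pcdhga6. Below, the lowest gamma row of a library stands for the common level, and the count of a gene above it is called its excess. The excess is a lower bound on reads in the gene's own exon, which are unique to the gene only if no read was also counted for a similar gene.

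**Figure D1:**
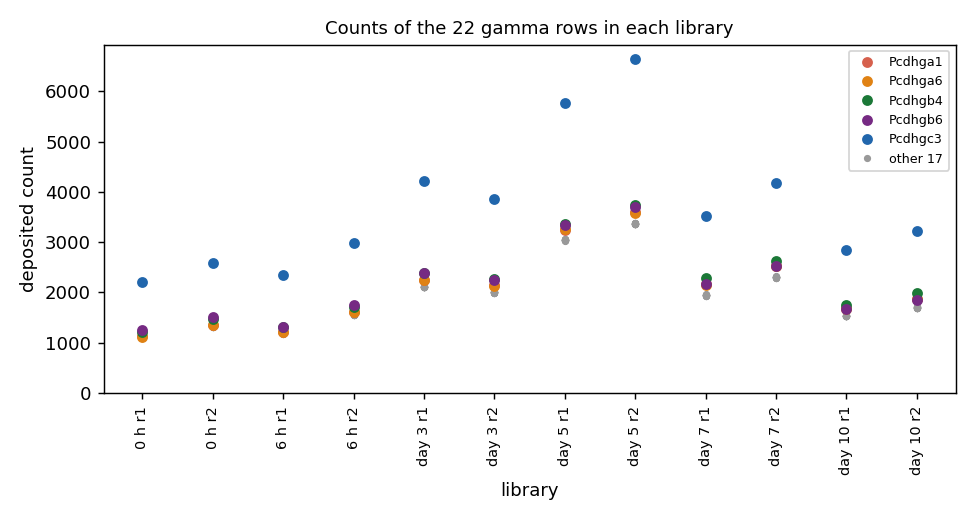
Deposited counts (y axis, linear from 0) of the 22 gamma genes in each of the 12 libraries (x axis), with 5 genes in colour and the other 17 in grey. The grey points coincide within each library, between 1100 and 1111 in the first 0 h library and between 3352 and 3381 in the second day 5 library, while Pcdhgc3 reaches 2214 and 6648 there.

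The alpha array was close to silent throughout. Its highest count in any library was 9, for Pcdha9 in both day 5 libraries, and all 12 alpha genes were at 0 in 4 libraries. The lowest alpha row, which stands for the constant exons, held 3 and 0 counts at 0 h, 0 and 0 at 6 h, and 1 and 0 at day 3. It then held 6 and 7 counts at day 5, 3 and 8 at day 7, and 3 and 3 at day 10. The C-type alpha genes Pcdhac1 and Pcdhac2 had exactly these counts in every library, so no read was assigned to their variable exons alone. Pcdha9 had the largest alpha excess, at most 3 counts. At this depth an alpha transcript of a few counts per library could not be followed over time, and none of the alpha genes met the level for members.

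The beta array rose between 6 h and day 3 and stayed high. Summed over its 21 genes, it stood at 21.7 and 25.6 CPM in the 0 h libraries, 21.9 and 24.9 CPM at 6 h, 119 and 107 CPM at day 3, 144 and 161 CPM at day 5, 148 and 162 CPM at day 7, and 117 and 136 CPM at day 10. The 4 libraries of 0 h and 6 h thus lay well below the 8 later ones, with no overlap. The mean ratio to 0 h was 4.80 at day 3. It was 6.46 at day 5 and 6.57 at day 7, and day 10 stood at 5.36. With no scaling factor the day 10 ratio was 4.19.

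The gamma array rose on the same days from a higher base and by a smaller ratio. Its common level was 80.8 and 81.5 CPM at 0 h, 76.8 and 84.5 CPM at 6 h, 134 and 131 CPM at day 3, 188 and 200 CPM at day 5, 134 and 141 CPM at day 7, and 137 and 129 CPM at day 10. Day 5 was the peak, at 2.39 times the 0 h mean, and day 10 stood at 1.64 times. For the 22 rows summed the day 10 ratio was 1.65, and 1.29 with no scaling factor. The day 5 and day 7 means of the beta sum differed by less than their SDs, whereas the gamma level came down from day 5 to day 7 (log2 fold change of the common row −0.50, SE 0.07, edgeR adjusted p = 3.44e-05). Whether the changes of the beta and gamma arrays differ was not tested.

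**Figure D2:**
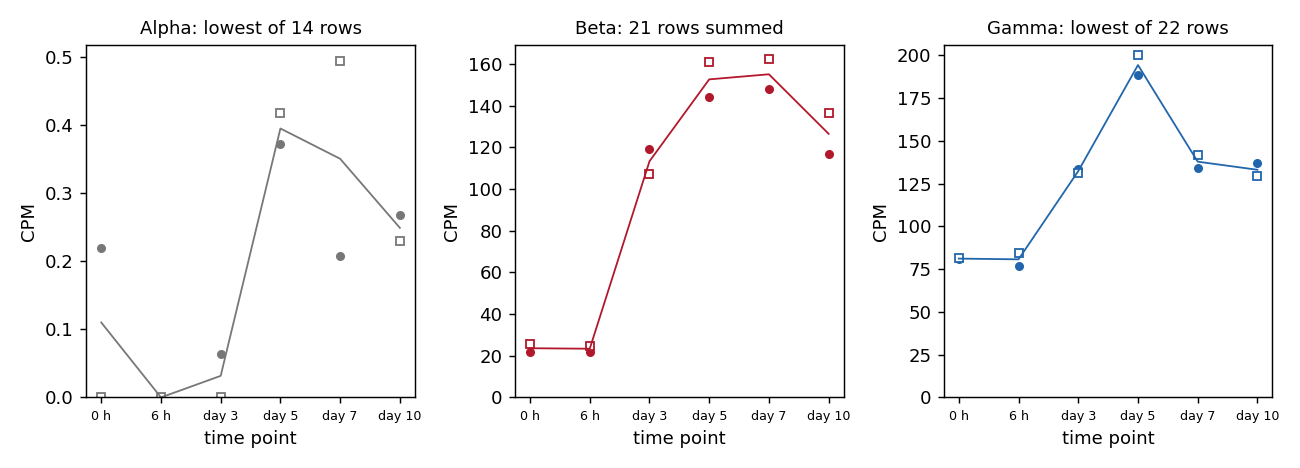
CPM (y axes, linear from 0, each panel on its own scale) of the lowest alpha row, the sum of the 21 beta genes and the lowest gamma row at the 6 time points (x axes). Filled circles are replicate 1, open squares replicate 2 and lines join the means. The lowest alpha row stays below 0.5 CPM, the beta sum goes from a mean of 23.6 CPM at 0 h to 155 CPM at day 7, and the lowest gamma row goes from 81.1 CPM at 0 h to 194 CPM at day 5.

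No member was called at 6 h against 0 h by edgeR, where 0.746% of all genes were called. Of the 39 members, 2 had an unadjusted p under 0.05 in that comparison, and DESeq2 called 0. At day 3 against 0 h, 16 of 17 beta members and 22 of 22 gamma rows were called higher, beside 33.1% of all genes. In the joint test over time 16 and 22 were called, beside 94.7%. The same counts were called higher at day 5, day 7 and day 10 against 0 h, beside backgrounds of 40.3%, 41.7% and 42.8%, and at day 3 against 6 h, beside 32.9%. From day 3 to day 5, 10 beta members and 22 gamma rows were called higher, beside 34.0%. Neither count is evidence on its own: the gamma rows share most of their reads, and 10 of the 17 beta members reached the level for members only through libraries later than 6 h. The 1 beta member not called at day 3, 5, 7 or 10 against 0 h was Pcdhb2, which was not called at day 3 against 6 h either.

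The remaining 7 beta members, Pcdhb16 to Pcdhb22, met the level in the 0 h and 6 h libraries alone, so the level did not require them to rise. They are the 7 genes at the gamma end of the beta array, next to each other from 37477768 to 37521419. At 0 h they held 88.8% (exact 95% interval 84.6 to 92.2) and 90.6% (87.3 to 93.2) of all beta counts, and at day 10 76.2% and 75.6%. Their early counts set these 7 genes apart, which favours a high early share and a lower later one. These shares are therefore a description. Intervals here and below cover counting error only.

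Pcdhb17 was the most abundant beta gene. Its level was 11.2 and 12.2 CPM at 0 h, 10.5 and 12.5 CPM at 6 h, 49.9 and 45.5 CPM at day 3, 53.4 and 55.7 CPM at day 5, 51.6 and 58.8 CPM at day 7, and 37.6 and 43.2 CPM at day 10. The 4 early libraries formed one low set and the later ones a high set, with day 10 the lowest of the later points. The log2 fold change was 2.02 at day 3 (SE 0.12, edgeR adjusted p = 1.56e-10) and 1.78 at day 10 (SE 0.12). From day 7 to day 10 it was −0.45 (SE 0.10, edgeR adjusted p = 0.00405), and Pcdhb17 was the 1 member called lower there, beside 13.2% of all genes. That last call was lost without day 7 replicate 2 (adjusted p = 0.0680) and without day 10 replicate 1 (adjusted p = 0.0662), and its adjusted p over all settings tried ran from 0.000184 to 0.0680. Per kilobase of its length, Pcdhb17 averaged 11.3 CPM over the 12 libraries, followed by Pcdhb22 at 3.49, Pcdhb16 at 2.41 and Pcdhb21 at 2.40 CPM per kilobase.

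Pcdhb16 had the largest log2 fold change of these 7 at day 10. It went from 0.881 and 1.92 CPM at 0 h and 1.63 and 1.68 CPM at 6 h to 12.8 and 9.21 CPM at day 3, 19.3 and 21.5 CPM at day 5, 19.2 and 25.1 CPM at day 7, and 17.5 and 21.8 CPM at day 10. Its log2 fold change at day 10 was 3.77 (SE 0.28, edgeR adjusted p = 4.67e-09). Pcdhb22, the last gene of the array, went from 3.38 and 3.09 CPM at 0 h and 3.32 and 3.42 CPM at 6 h to 11.9 and 10.4 CPM at day 3, 17.3 and 17.5 CPM at day 5, 17.2 and 15.3 CPM at day 7, and 12.8 and 12.9 CPM at day 10. Its log2 fold change at day 10 was 1.99 (SE 0.16, edgeR adjusted p = 4.24e-09). Both genes were high in every library from day 3 on.

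Pcdhb18 and Pcdhb21 were highest at day 3. Pcdhb21 had 1.62 and 2.29 CPM at 0 h, 2.08 and 2.66 CPM at 6 h, 10.8 and 10.6 CPM at day 3, 8.89 and 10.6 CPM at day 5, 7.82 and 8.64 CPM at day 7, and 6.18 and 5.82 CPM at day 10. Pcdhb18 had 1.25 and 1.92 CPM at 0 h, 1.5 and 0.705 CPM at 6 h, 7.62 and 7.17 CPM at day 3, 6.53 and 7.58 CPM at day 5, 7.55 and 5.99 CPM at day 7, and 4.66 and 6.28 CPM at day 10. Their log2 fold changes at day 10 were 1.60 (SE 0.23) and 1.77 (SE 0.30), below the 2.43 and 2.20 of day 3, and edgeR did not call either gene between day 7 and day 10 (adjusted p = 0.0712 for Pcdhb21 and 0.393 for Pcdhb18). When only the 4 libraries compared were fitted, Pcdhb21 was called lower there (adjusted p = 0.0422).

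Pcdhb19 and Pcdhb20 ran close to each other. Whether their counts hold some of the same reads was not tested, and they are not counted as separate evidence. Pcdhb19 had 0.441 and 1.05 CPM at 0 h, 0.716 and 0.814 CPM at 6 h, 5.40 and 3.68 CPM at day 3, 6.84 and 7.46 CPM at day 5, 6.65 and 7.59 CPM at day 7, and 4.93 and 6.59 CPM at day 10. Pcdhb20 had 0.441 and 0.680 CPM at 0 h, 0.586 and 0.705 CPM at 6 h, 5.40 and 5.26 CPM at day 3, 6.34 and 7.46 CPM at day 5, 5.54 and 7.41 CPM at day 7, and 5.20 and 6.59 CPM at day 10. Neither gene had an early library that reached a later one. The share of all genes with such a gap was not computed. The log2 fold change at day 10 was 2.90 for Pcdhb19 (SE 0.34, edgeR adjusted p = 4.50e-07) and 3.36 for Pcdhb20 (SE 0.32, edgeR adjusted p = 3.10e-08).

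**Figure D3:**
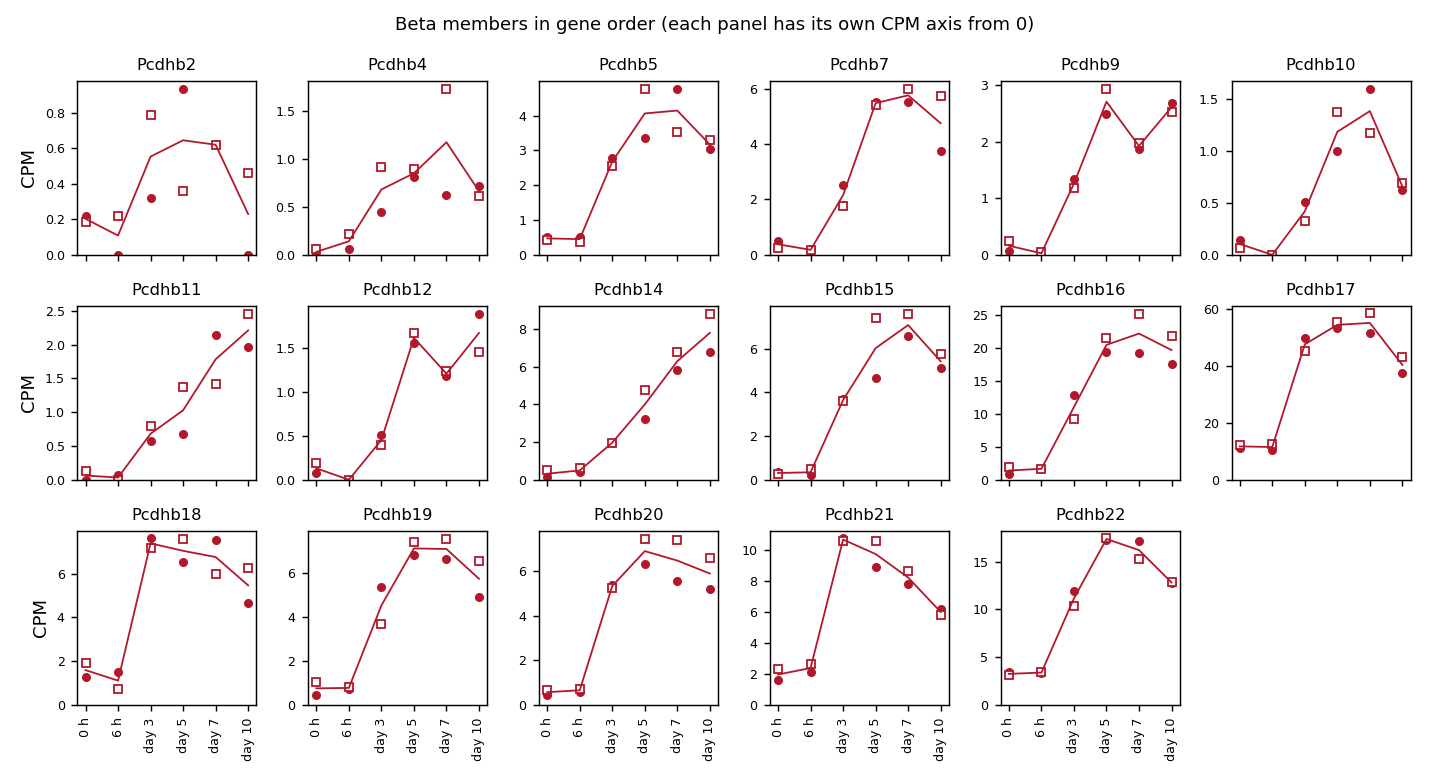
CPM (y axes, linear from 0, each panel on its own scale) of the 17 beta members in gene order at the 6 time points (x axes), with replicate 1 as filled circles, replicate 2 as open squares and lines through the means. The early and later libraries overlap for Pcdhb2, and Pcdhb11, Pcdhb12 and Pcdhb14 have their highest mean at day 10. Of the 17 members, 10 reached the level for members only through libraries later than 6 h, which favours a gap between early and later libraries. The share of all genes with such a gap was not computed.

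The other 10 beta members lie towards the alpha end of the array, and their values are given as a description: the rise from 0 h or 6 h helped to choose them, and no test of it is used as support. Pcdhb14 and Pcdhb15, beside the 7 genes above, were the most abundant of them. Pcdhb14 had counts of 2 and 8 at 0 h, 6 and 11 at 6 h, 31 and 30 at day 3, 52 and 80 at day 5, 84 and 110 at day 7, and 76 and 115 at day 10. Pcdhb15 had counts of 5 and 4 at 0 h, 3 and 9 at 6 h, 58 and 55 at day 3, 75 and 124 at day 5, 95 and 123 at day 7, and 57 and 75 at day 10. In CPM, Pcdhb14 climbed through day 10 (mean 7.81) while Pcdhb15 peaked at day 7 (mean 7.08). The day 10 log2 fold changes were 4.52 (SE 0.38) and 4.13 (SE 0.41).

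Pcdhb14 was the 1 member called higher from day 7 against day 5, beside 19.0% of all genes (log2 fold change 0.65, SE 0.24, edgeR adjusted p = 0.0414). Its adjusted p over all settings tried ran from 0.0110 to 0.251. The call was lost without day 5 replicate 1 (0.251), day 7 replicate 1 (0.0711), day 7 replicate 2 (0.209), day 10 replicate 1 (0.0502) or day 10 replicate 2 (0.0512), so it depends on each of these libraries. In the same comparison 22 of 22 gamma rows were called lower, beside 18.8% of all genes, as the fall of their common level entails.

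Pcdhb5, Pcdhb7 and Pcdhb9 lie nearer the alpha array. Pcdhb5 had counts of 7 and 7 at 0 h, 8 and 7 at 6 h, 44 and 39 at day 3, 54 and 80 at day 5, 69 and 57 at day 7, and 34 and 43 at day 10. Pcdhb7 had counts of 7 and 4 at 0 h, 3 and 3 at 6 h, 40 and 27 at day 3, 89 and 91 at day 5, 80 and 97 at day 7, and 42 and 75 at day 10. Pcdhb9 had counts of 1 and 4 at 0 h, 0 and 1 at 6 h, 21 and 18 at day 3, 40 and 49 at day 5, 27 and 32 at day 7, and 30 and 33 at day 10. Each was low in all 4 early libraries and above them in all 8 later ones. Reaching the level only through later libraries favours such a gap, and the share of all genes with one was not computed. The day 10 log2 fold changes were 2.73 (SE 0.38) for Pcdhb5, 3.67 (SE 0.38) for Pcdhb7 and 3.89 (SE 0.48) for Pcdhb9.

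Pcdhb4, Pcdhb10, Pcdhb11 and Pcdhb12 were rare. Pcdhb4 had 0 and 1 counts at 0 h, 1 and 4 at 6 h, 7 and 14 at day 3, 13 and 15 at day 5, 9 and 28 at day 7, and 8 and 8 at day 10. Pcdhb10 had 2 and 1 counts at 0 h, 0 and 0 at 6 h, 8 and 5 at day 3, 16 and 23 at day 5, 23 and 19 at day 7, and 7 and 9 at day 10. These few early counts leave the day 10 to 0 h ratio of summed counts, scaled for library size, uncertain. It was 19.7 (exact 95% counting interval 3.06 to 825) for Pcdhb4 and 6.56 (1.88 to 35.1) for Pcdhb10. Such intervals cover counting error alone. They ignore that later libraries made these genes members, so they support no rise. Pcdhb11 had 0 and 2 counts at 0 h, 1 and 0 at 6 h, 9 and 12 at day 3, 11 and 23 at day 5, 31 and 23 at day 7, and 22 and 32 at day 10, a ratio of 33.2 (8.76 to 281). Pcdhb12 had 1 and 3 counts at 0 h, 0 and 0 at 6 h, 8 and 6 at day 3, 25 and 28 at day 5, 17 and 20 at day 7, and 21 and 19 at day 10.

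The count of 16 beta members called higher at day 3 includes Pcdhb10 and Pcdhb12, whose calls did not hold under every setting. For Pcdhb10 the edgeR adjusted p ran from 0.0274 to 0.213 over all settings, and the call was lost when 0 h replicate 1 (0.0579), 0 h replicate 2 (0.213) or day 3 replicate 1 (0.180) was left out, and with DESeq2 (0.10). For Pcdhb12 it ran from 0.0300 to 0.202, and leaving out 0 h replicate 1 (0.202), 0 h replicate 2 (0.0561), day 3 replicate 1 (0.157) or day 3 replicate 2 (0.0638) ended the call, as did DESeq2 (0.107). It lay between 0.0501 and 0.0528 without day 5 replicate 1 or either library of day 7 or day 10. Both genes became members through libraries later than 6 h, so these values bear on the count alone and support no rise.

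The genes nearest the level for members were these. Just inside it, Pcdhb2, the gene nearest the alpha array, had 3 and 3 counts at 0 h, 0 and 4 at 6 h, 5 and 12 at day 3, 15 and 6 at day 5, 9 and 10 at day 7, and 0 and 6 at day 10. Just outside it, Pcdhb3, Pcdhb6 and Pcdhb8 reached the level in 1 library each, with highest counts of 13, 11 and 12, and Pcdhb13 had at most 8 counts. With 5 counts as the level, 12 alpha, 21 beta and 22 gamma genes would have been kept, and with 20 counts 0, 15 and 22.

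The make-up of the beta array shifted away from its most abundant gene. Pcdhb17 took 51.9% (exact 95% interval 46.0 to 57.7) and 47.8% (42.9 to 52.8) of beta counts at 0 h, and 32.3% and 31.6% at day 10. Pcdhb16 went from 4.07% and 7.49% at 0 h to 15.0% and 16% at day 10. Pcdhb14, which became a member through libraries later than 6 h, went from 0.678% and 1.93% to 5.84% and 6.45%. Pcdhb22 went down from 15.6% and 12.1% to 11.0% and 9.43%, and Pcdhb21 from 7.46% and 8.94% to 5.30% and 4.26%. For each of these genes the 2 libraries at 0 h lay on one side of the 2 at day 10. Shares were computed only for these picked genes of the array. How many of all genes separate in this way was not computed, so the separation is a description. No test of a share was run.

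The gamma array showed a like shift when the excess over the common level was fitted in place of the 22 rows, a step chosen after the near-equal counts were seen. In that fit of 12738 rows, 19 of the 22 excess rows had enough counts to be tested. At day 3 against 0 h, 7 of 19 were called higher and 0 lower, beside 33.0% of all rows called higher and 68.0% called in either direction. At day 10, 9 of 19 were called higher and 0 lower, beside 42.7% higher and 82.6% in either direction, and the joint test over time called 12 of 19, beside 94.6%. The share of excess rows called higher was thus near that of all rows, and the share called in either direction below it. Most excess rows held few counts: for 17 of the 22 genes the excess was at most 41 in any library. The common level was called higher at days 3, 5, 7 and 10 against 0 h. Summed over the 22 genes, the excess stood at 1.76, 2.40, 1.74 and 1.77 times its 0 h mean on those days. The common level stood at 1.63, 2.39, 1.70 and 1.64 times.

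Pcdhgc3, a C-type gene with its promoter nearest the constant exons but for Pcdhgc4 and Pcdhgc5, carried most of the excess. Its excess was 1114 and 1264 counts at 0 h, 1170 and 1418 at 6 h, 2120 and 1876 at day 3, 2738 and 3296 at day 5, 1575 and 1891 at day 7, and 1316 and 1532 at day 10. In CPM this was 81.8 and 78.1 at 0 h, 170 and 197 at day 5, and 118 and 117 at day 10, a course that peaked at day 5 like the common level. The log2 fold change of the excess was 1.20 at day 5 (SE 0.08, edgeR adjusted p = 3.71e-10), −0.70 from day 5 to day 7 (SE 0.08, edgeR adjusted p = 3.23e-06) and 0.56 at day 10 against 0 h (SE 0.08). Its share of the gamma excess was 73.6% and 71.3% at 0 h and 61.2% and 59.5% at day 10.

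Pcdhga1 and Pcdhga6, A-type genes, had the largest log2 fold changes at day 10 among the 5 genes that stood out. Pcdhga1 had an excess of 30 and 32 counts at 0 h, 27 and 51 at 6 h, 153 and 149 at day 3, 210 and 245 at day 5, 221 and 229 at day 7, and 165 and 178 at day 10. Pcdhga6 had 23 and 44 counts at 0 h, 36 and 51 at 6 h, 137 and 138 at day 3, 223 and 226 at day 5, 218 and 228 at day 7, and 146 and 176 at day 10. The excesses of the 2 genes were close in every library from day 3 on, and the sources used here do not say how the authors assigned reads that match 2 similar genes. Whether the 2 excesses hold some of the same reads was not tested, and they are not counted as separate evidence. The log2 fold change of the excess at day 10 was 2.76 for Pcdhga1 (SE 0.20, edgeR adjusted p = 7.34e-10) and 2.56 for Pcdhga6 (SE 0.19, edgeR adjusted p = 1.51e-09). Unlike Pcdhgc3, neither was called from day 5 to day 7 (adjusted p = 0.678 and 0.655). Whether the genes differ in that step was not tested.

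The B-type genes Pcdhgb4 and Pcdhgb6 changed places over the course. Pcdhgb4 had an excess of 106 and 149 counts at 0 h, 141 and 158 at 6 h, 285 and 271 at day 3, 333 and 390 at day 5, 347 and 325 at day 7, and 215 and 303 at day 10. Pcdhgb6 had 154 and 185 counts at 0 h, 133 and 201 at 6 h, 274 and 259 at day 3, 314 and 339 at day 5, 235 and 237 at day 7, and 151 and 151 at day 10. In CPM, Pcdhgb4 went from a mean of 8.50 ± 1.01 (SD, n = 2) at 0 h to 21.2 ± 2.79 at day 10, and Pcdhgb6 from 11.4 ± 0.0908 to 19.9 ± 0.502 at day 5 and back to 12.5 ± 1.39 at day 10. Pcdhgb6 was thus the higher of the pair in both 0 h libraries and the lower in both day 10 libraries, a difference between genes that was not tested. For Pcdhgb4 the log2 fold change at day 10 was 1.32 (SE 0.14, edgeR adjusted p = 2.33e-07).

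Pcdhgb6 was called higher at day 5 (log2 fold change 0.81, SE 0.13, edgeR adjusted p = 2.81e-05) and not at day 10 (0.14, SE 0.14, edgeR adjusted p = 0.378). Its change from day 5 to day 7 was −0.37 (SE 0.13, edgeR adjusted p = 0.0306, between 0.0255 and 0.189 over all settings). That call was lost without day 5 replicate 1 (0.0728), day 5 replicate 2 (0.122), day 7 replicate 1 (0.0560) or day 7 replicate 2 (0.189), and with DESeq2 (0.119).

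**Figure D4:**
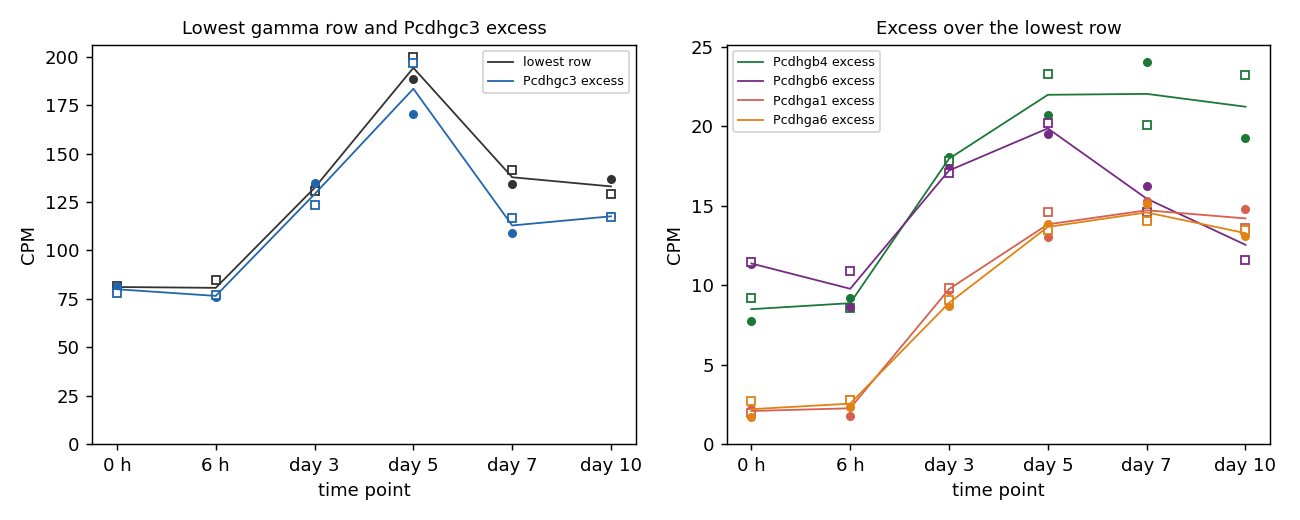
CPM (y axes, linear from 0) of the lowest gamma row and the Pcdhgc3 excess (left panel) and of the excess of 4 further gamma genes (right panel) at the 6 time points (x axes), with replicate 1 as filled circles, replicate 2 as open squares and lines through the means. The left pair peaks at day 5 at means of 194 and 183 CPM, while Pcdhga1 and Pcdhga6 stay at 13 to 15 CPM after day 5 and Pcdhgb6 returns to 12.5 CPM at day 10.

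The excess of the other 17 gamma genes was at most 41 counts in any library and summed to 87 and 99 counts at 0 h and to 158 and 235 at day 10. Among them Pcdhga3 had 5 and 3 counts of excess at 0 h and 20 and 21 at day 10 (log2 fold change 2.62, SE 0.51, edgeR adjusted p = 0.000171). The calls of Pcdhgb5 and Pcdhga9 at day 10 were each lost without 0 h replicate 1 (adjusted p = 0.0654 and 0.118) and without day 10 replicate 2 (adjusted p = 0.144 and 0.0750). An excess of a few counts carries the counting error of those few reads and depends on which gene is the lowest, so no order among the 17 genes is read from it.

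Per kilobase, the variable exons of the 22 genes together matched the constant exons fairly closely. Over the 12 libraries the ratio of summed excess per kilobase to common level per kilobase was between 1.06 and 1.28. Averaged over libraries, the common level was 59.7 CPM per kilobase of constant exons, the Pcdhgc3 excess 45.4, Pcdhgb4 7.10, Pcdhgb6 5.61, Pcdhga1 3.92 and Pcdhga6 3.80 CPM per kilobase of the gene's own exonic sequence. On this scale Pcdhga1 stood at 8.63% of Pcdhgc3 and Pcdhgb4 at 15.6%, whereas the deposited counts per gene length would put them at 57.8% and 61.7%. The summed beta level was 6.55 and 7.52 CPM per kilobase at 0 h and 33.4 and 38.6 at day 10, against 38.1 and 38.5 and then 64.5 and 61.0 for the gamma constant exons.

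**Figure D5:**
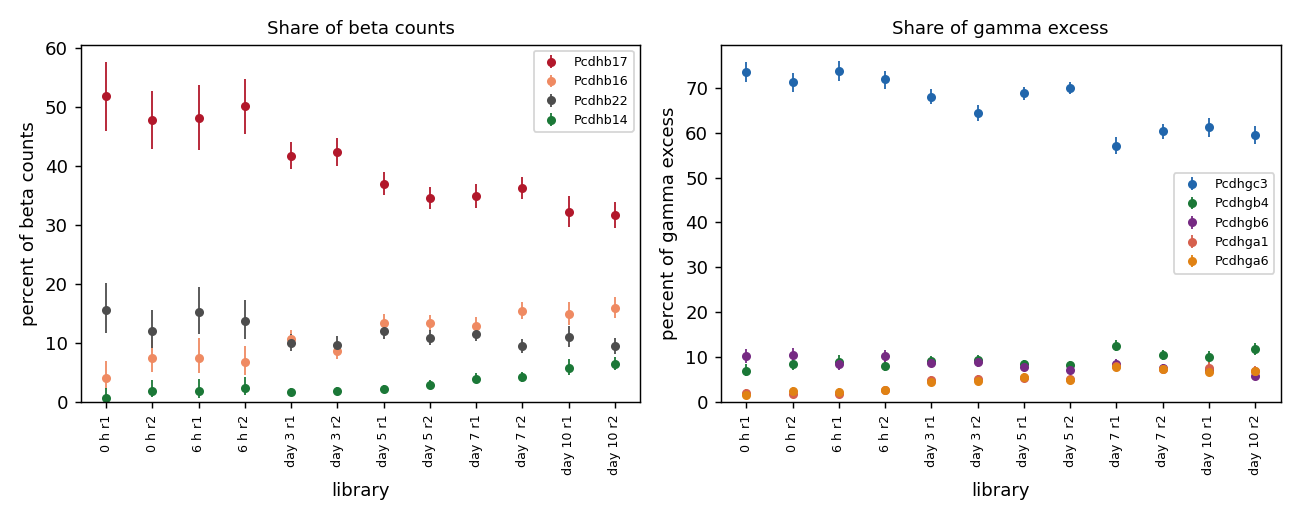
Share (y axes, percent, linear from 0) of single genes in the counts of the beta array (left) and in the summed gamma excess (right) in each library (x axes); bars are exact 95% binomial intervals, which cover counting error only. The Pcdhb17 share goes from 51.9% and 47.8% at 0 h to 32.3% and 31.6% at day 10, and the Pcdhgc3 share from 73.6% and 71.3% to 61.2% and 59.5%.

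Genes known to act on promoter choice and silencing in this locus changed in both directions. Of 30 such regulators tested, 12 were called higher and 17 lower at day 10 against 0 h, with a median log2 fold change of −0.47. Of all genes, 42.8% were called higher and 39.9% lower, with a median of 0.06. The looping factor Ctcf fell by 0.77 on the log2 scale and the cohesin subunit Rad21 by 1.25, and Smchd1, a known repressor of the protocadherin arrays, fell by 0.61. The repressors Setdb1 and Rest fell by 1.18 and 0.22. All of these were called by edgeR at day 10.

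Among DNA methylation genes, the demethylases Tet2 and Tet1 rose by 1.92 and 1.56 on the log2 scale, as did the methyltransferase Dnmt3a by 1.69. The methyltransferase Dnmt3b fell by 1.81. The maintenance methyltransferase Dnmt1 fell by 3.42 and its partner Uhrf1 by 7.04, and the corepressor Trim28 fell by 2.00. Dnmt1 and Uhrf1 are also cell-cycle genes, and at day 3 Dnmt1 fell by 2.74 and Uhrf1 fell by 6.73, when the proliferation markers were down too. At 6 h no regulator was called. The part of these genes in the protocadherin rise was not tested.

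Genes of the proteins that act with protocadherins at the membrane also changed in both directions. Of 22 tested cytoplasmic partners and processing enzymes, 4 were called higher and 11 lower at day 10 (median log2 fold change −0.33), beside 42.8% and 39.9% of all genes. Psen2, a subunit of the γ-secretase that cuts protocadherins, rose by 4.25, the kinase Ptk2b by 1.17 and Brk1, a subunit of the WAVE actin regulatory complex, by 0.50. Fyn, Prkca and Snx5 fell by 3.10, 2.28 and 2.10, and Ptk2, the focal adhesion kinase that the gamma proteins inhibit, by 1.19. The shedding protease Adam10 fell by 0.35.

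Of 10 non-clustered protocadherins and related large cadherins tested, 5 were called higher and 4 lower at day 10, near the 42.8% and 39.9% of all genes. Pcdh10 went from 0 counts at 0 h to 45 at day 10, at least 18.5-fold higher when 3 counts summed over both 0 h libraries are taken as the floor, and Celsr2 from 0 to 17 counts, at least 6.97-fold higher. Dchs1 went from 1 to 24 counts (ratio 29.5, exact 95% counting interval 4.81 to 1214). Pcdh10, Celsr2 and Dchs1 were named for their rise in this same comparison, and only libraries other than 0 h let them pass the count filter. Their ratios are a description and support no rise, and the floor values leave out the counting error at day 10. Pcdh19, Fat2 and Pcdh18 fell by 3.20, 1.55 and 1.5 on the log2 scale.

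Of 25 tested genes flanking the 3 arrays or lying between them, 15 were called higher and 4 lower at day 10, with a median log2 fold change of 0.66, beside 42.8% and 39.9% of all genes and a median of 0.06. Taf7, which codes for a subunit of the transcription factor TFIID and lies between the beta and gamma arrays, went from 11.2 ± 0.446 (SD, n = 2) to 25.8 ± 2.23 CPM (log2 fold change 1.20, SE 0.12, edgeR adjusted p = 6.88e-08). At day 3, when the beta array had risen, Taf7 was at 13.4 CPM. Of the genes beyond the gamma array, Diaph1 fell by 0.51 and Hdac3 rose by 0.66. The largest rises were Pcdh12 (2.58), Ndufa2 (1.45) and Rnf14 (1.39), and the largest falls Wdr55 (−2.18), Hars (−1.53) and Cd14 (−0.63). Pcdh12 is also on the list of non-clustered protocadherins above, so it is counted in both lists. Whether the arrays share a change with their flanks was not tested.

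Markers of other cell types were read in the same libraries. The summed level of 10 mesenchymal markers was 9250 to 9632 CPM at 0 h, 10713 to 15369 CPM at day 3 and 3119 to 3486 CPM at day 10. That of 8 epithelial markers was 842 to 853 CPM at 0 h, 103 to 150 CPM at day 3, when the beta and gamma arrays had risen, and 906 to 964 CPM at day 10. The part of either in the protocadherin rise was not tested. The 4 endothelial markers in the table summed to at most 3.98 CPM and the 3 leukocyte markers to at most 8.47 CPM in any library. Since the clustered protocadherins are best known from the nervous system, markers of neurons and glia were included. Of 16 such markers, 12 were in the table, and their summed level was 30.5 to 33.4 CPM at 0 h, 39.8 to 45.7 CPM at day 3 and 99.3 to 101 CPM at day 10. Most of it at 0 h was Map2, with 439 and 478 counts. The neuronal markers Rbfox3, Syt1, Gad1 and Dcx had at most 3 counts in any library. Of the 12, 4 had enough counts to be tested, and 4 were called higher at day 10, beside 42.8% of all genes. These were Map2 and the glial genes Mbp (5 and 9 counts at 0 h, 493 and 555 at day 10), Sox10 (0 and 0, then 50 and 68) and Gfap (0 and 0, then 14 and 15). With 0 counts at 0 h, Sox10 and Gfap passed the count filter only through other libraries. The 4 calls are therefore a description and support no rise of the set. The part of these markers in the protocadherin rise was not tested.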

How the data were processed

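The authors deposited 1 table of raw gene counts for the 12 libraries. The submitters' processing notes name STAR as a tool and mm10 as the genome build. The aligner's version, the counting tool, the annotation, the strand setting and the handling of reads in exons shared between genes or matching several genes were not found in any source used here. Per the labels' protocols, a stranded kit for total RNA was used on 200 ng, and the RNA is also called poly-A+. Of 17090 Entrez identifiers, 17045 were matched to symbols in RefSeq and 4 in GENCODE, both of GRCm38, and 41 were not matched.

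The model was fitted in edgeR 4.0.16 (R 4.3.3, TMM factors 0.819 to 1.15, filterByExpr, robust quasi-likelihood F test, prior count 0.125), with a mean per time point over 12 libraries and 6 residual degrees of freedom, so p-values measure the spread between the 2 independent experiments pooled over time points. The filter left 12740 genes and removed 4350, and adjustment was by Benjamini-Hochberg over all genes tested in each of 9 pairwise comparisons and 1 joint test. The common biological coefficient of variation was 0.0737, and chi-square per degree of freedom between replicates was 4.37 to 16.4, so replicates differed by more than counting error. Counts of 12404 genes were simulated for day 10 against 0 h, with the common dispersion for every gene. Of these genes 67 were changed 1.5-fold, 64 2-fold and 66 4-fold. The test recovered 74.6%, 78.1% and 98.5% of them, with 8 false among 173 calls. This setting has far fewer changed genes than the data and no gene with a wider spread than the common one. Its rates therefore do not carry over to the members or to so broad a course. DESeq2 1.42.0 was an alternative.

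Members and gene lists were chosen with earlier results of these data known. Full values per library were given for the 3 members of each array with the highest mean CPM, for the 5 largest called rises at day 10, and for members called in the joint test that were highest before day 10. The other 17 gamma rows were summarised because they are nearly equal. Of the other lists, named genes were set key genes and the 3 called members with the largest rise and the largest fall. The values of 1 key gene are not reported here. Exact binomial and counting intervals came from scipy 1.17.1. Fitting the lowest gamma (and alpha) row and each gene's excess over it, taking the median row as the common level, and counting each gamma read once were added after the counts were seen. Alternatives were other scalings, filters and prior counts, DESeq2, the 4 libraries of a comparison alone, other levels for members, a replicate block and leaving out each library.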

Additional observations from a re-analysis of the deposited data

How the results depend on the processing

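Of the counts of members called and recomputed under the alternatives, 387 stayed within 1.5 times the reported count, 9 were lower and 2 higher. Counts that were 0 in both fits are among the 387, as are counts of gamma rows that share most of their reads. A count of calls cannot show a reversal. No called fold change of a single member that was recomputed changed sign. Of the 2 counts of 1 member, the count called higher at day 7 against day 5 (Pcdhb14) was 0 with upper-quartile scaling and 0 with DESeq2, and between 0 and 1 when single libraries were left out. The count called lower at day 10 against day 7 (Pcdhb17) was 2 with upper-quartile scaling, 3 when only the 4 libraries compared were fitted, and between 0 and 1 when single libraries were left out. With no scaling factor, the day 10 to 0 h ratio was 4.19 in place of 5.36 for the beta sum and 1.29 in place of 1.65 for the gamma rows, and 1.71 for gamma with each shared read counted once. The cause was not tested. Other scalings moved the median of all genes by less than 0.1 (log2).

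The replicate numbers in the labels did not pair the libraries: of 15 correlations between the deviations of same-numbered libraries, 1 was over 0.1 (range −0.0913 to 0.193). With a replicate block, 37 members were called higher at day 3 and 38 at day 5, 7 and 10 against 0 h; the day 3 call lost was that of Pcdhb12 (adjusted p = 0.0510).

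Depth limits the alpha array and the beta genes with few counts at 0 h. How reads of similar beta genes were split is not given in the sources. With 2 libraries per time point, each p rests on the spread pooled over time points. Differences between genes in their courses were not tested.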
